A study of Mus musculus with 2 samples.

Results

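Purinergic and adenosine signalling in mouse dorsal striatum is described here through 10 genes of 32531 listed in the deposited counts: P2ry12, P2ry13, P2ry6, P2rx7, P2rx4, Entpd1, Nt5e, Adora1, Adora2a and Adk. The genes were selected by name, with the counts of these same libraries in view, so their values are a description and no test is attached to them. All 10 had at least 50 counts over both libraries, the minimum for calling a gene measured. Each group is 1 library of total RNA from dissected dorsal striatum, 1 from mice whose cocaine intake escalated under long-access intravenous self-administration and 1 from mice whose intake did not. Mice of both groups had self-administered cocaine and carried the Drd1-TRAP transgene of line CP73, a bacterial artificial chromosome whose Drd1 regulatory sequence drives ribosomal protein Rpl10a fused to EGFP. The background was FVB/N and Swiss Webster crossed to C57BL/6 for at least 9 generations, and both libraries are the input, not the purified ribosome fraction. The sources used here give neither the age of the mice, nor how many contributed to a library, nor any drug-free group.

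ATP released from cells acts on ion channels of the P2X family and on G protein-coupled receptors of the P2Y family. Enzymes on the cell surface cut it down to AMP and then to adenosine, which acts on its own receptors until cells take it up and adenosine kinase returns it to AMP. In the brain, microglia carry several P2Y and P2X receptors and the first enzyme of the chain, astrocytes hold most of the adenosine kinase of the adult tissue, and the striatum is known for the Adora2a adenosine receptor on the projection neurons that express Drd2.

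The libraries held 9548358 (escalating) and 9376097 (nonescalating) reads assigned to genes. Levels are given as CPM, the usual depth-normalised read count, with library sizes scaled by TMM, edgeR's trimmed mean method. Calls of higher or lower needed a ratio of escalating over nonescalating of 1.5-fold or more and an exact 95% interval of the split of counts that left out equality. That interval covers counting error only; with 1 library per group there is no replicate check, no test between the conditions, and each difference compares these libraries. Reads that fell on more than 1 gene made up 8.06% of all listed reads with escalation and 18.9% without it, and the single symbol AK140265 took 9.66% and 24.1% of assigned reads. Scaling to total reads raises the median log2 ratio of all measured genes by 0.36. Projection neuron markers were present in both libraries, with a summed level of 657 and 719 CPM for 6 markers of the Drd1 type and 1142 and 1589 CPM for 6 of the Drd2 type.

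Of the 10 genes, 6 were lower in the escalating library, 1 was higher and 3 were not called. Over all 12213 measured genes the same rule called 17.1% lower and 9.36% higher; since the genes were picked with this contrast in view, nothing is read from the difference in shares. The receptors P2ry13, P2ry12, P2ry6, P2rx7 and P2rx4 and the ectonucleotidase gene Entpd1 were lower, and the ectonucleotidase gene Nt5e was higher. The adenosine receptor genes Adora1 and Adora2a and the kinase gene Adk stayed within 1.5-fold. The median log2 ratio of the 10 genes was -1.27, beside 0.02 over all measured genes. With total-read scaling 5 of the 10 were lower and 1 higher, against 9.4% and 31.5% of all measured genes, and P2rx4 was the gene that lost its call.

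**Figure D1:**
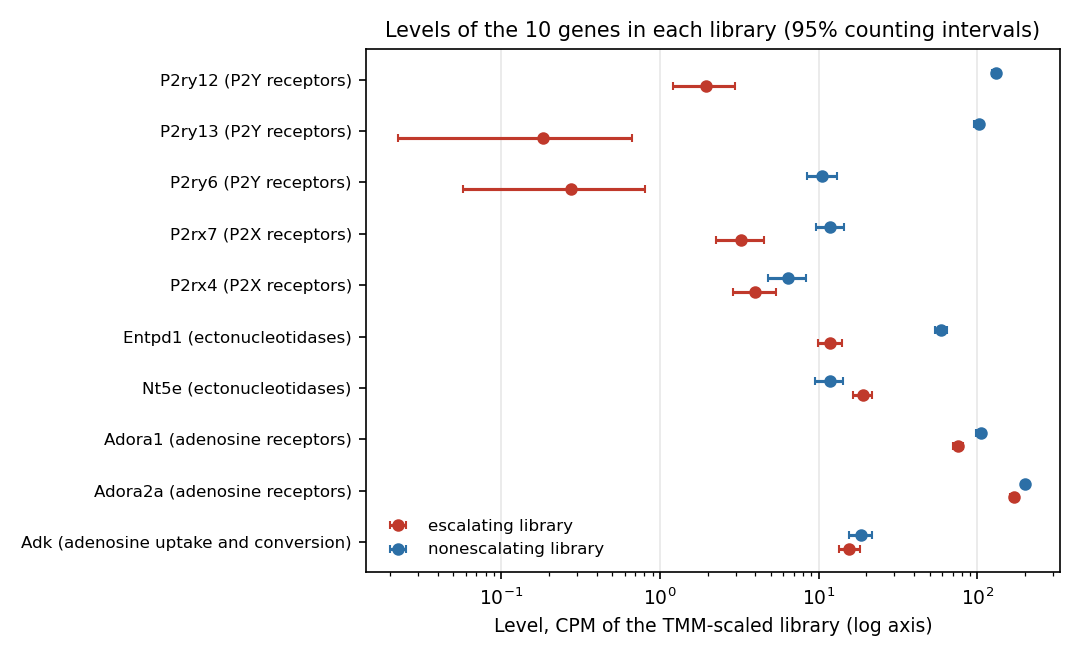
Level of each of the 10 genes in the escalating (red) and nonescalating (blue) library, in CPM of the TMM-scaled library on a log axis; points are single libraries and bars are exact 95% Poisson intervals, which cover counting error only. The 3 P2Y receptor genes lie between 0.185 and 1.94 CPM in the escalating and between 10.5 and 132 CPM in the nonescalating library, while the points of Adora1, Adora2a and Adk lie close together.

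The P2Y receptors showed the widest gap. P2ry12, the ADP receptor through which resting microglia sense injury and extend their processes (chromosome 3, 59216272 to 59262871, minus strand, mm10), gave 21 reads (1.94 CPM) with escalation against 1089 (132 CPM) without it. This is a 67.8-fold deficit with a 95% counting interval of 44.1 to 110.0. P2ry13, a neighbouring ADP receptor gene of microglia (chromosome 3, 59207892 to 59210882, minus strand), gave 2 reads (0.185 CPM) against 844 (102 CPM). Its ratio was the lowest of the 10 genes, 552-fold lower with an interval of 152 to 4565 that the count of 2 makes wide. P2ry6, a receptor for UDP that triggers engulfment by microglia (chromosome 7, 100937630 to 100974649, minus strand), gave 3 reads (0.277 CPM) against 87 (10.5 CPM), a 37.9-fold deficit (12.6 to 187). All 3 were at or below 1.94 CPM in the escalating library, and P2ry12 and P2ry13 were among the more abundant of the 10 genes in the other. In bulk RNA, fewer cells of a type and less RNA per cell cannot be told apart.

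P2ry1, an ADP receptor gene found in neurons and astrocytes, was the other measured member of the P2Y list. With 154 reads against 144, its log2 ratio of -0.29 (interval -0.63 to 0.05) was not called. P2ry1 shares 23.1% of its exon bases with Gm37035 on the opposite strand. P2ry14, which lies beside P2ry13 on chromosome 3, had 3 and 8 counts and P2ry2 had 5 and 3, below the count minimum and with intervals that hold equality, and P2ry4 and P2ry10 had 0 counts in both libraries. Where no read was found, as many as 3 are still possible, equal to 0.277 CPM (escalating) or 0.363 CPM (nonescalating).

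P2ry12 and P2ry13 lie within Med12l, a Mediator subunit gene on the opposite strand. In the GENCODE M21 annotation P2ry12 shares 9 of its exon bases with an exon of Med12l, and P2ry13 shares 0. Med12l itself gave 864 reads against 675, for a log2 ratio of -0.03 (-0.18 to 0.12). The host gene was thus at about the same level in both libraries while P2ry12 and P2ry13 were not. P2ry14 lies within Med12l too, but was below the count minimum. No source used here states the strand setting of the counting, and the part of reads assigned to more than 1 gene in these values was not tested.

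The upstream sequence of 3 members is shown because the windows differ in CpG content and motif letters, from the member with the lowest ratio (P2ry13) over Entpd1 to Adora1, which was not called. RefSeq windows on GRCm38.p6, the build of mm10, were at hand for 8 of the 10 genes (12 windows, since some genes have a pair of start sites) and gave the 250 bases before each start; P2ry6 and Adora2a were not matched. The P2ry12 window lies over exons of Med12l in all its 250 bases and is not printed. Capitals mark the letters of the motif searches described after the sequences; CGTCA is TGACG on the opposite strand. P2ry13 is chr3:59210883-59211132 on the minus strand, Entpd1 is the window before the downstream of its start sites, chr19:40659520-40659769 on the plus strand, and Adora1 is chr1:134235458-134235707 on the minus strand.
P2ry13: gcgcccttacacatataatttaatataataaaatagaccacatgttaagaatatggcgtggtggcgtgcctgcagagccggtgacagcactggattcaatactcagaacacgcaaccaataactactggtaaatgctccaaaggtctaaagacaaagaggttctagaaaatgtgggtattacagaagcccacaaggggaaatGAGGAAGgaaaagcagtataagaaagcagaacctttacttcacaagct
Entpd1: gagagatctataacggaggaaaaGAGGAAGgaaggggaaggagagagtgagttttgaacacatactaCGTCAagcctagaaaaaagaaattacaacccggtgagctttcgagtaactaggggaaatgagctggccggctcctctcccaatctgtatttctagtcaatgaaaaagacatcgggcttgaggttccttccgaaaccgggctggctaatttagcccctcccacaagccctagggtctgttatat
Adora1: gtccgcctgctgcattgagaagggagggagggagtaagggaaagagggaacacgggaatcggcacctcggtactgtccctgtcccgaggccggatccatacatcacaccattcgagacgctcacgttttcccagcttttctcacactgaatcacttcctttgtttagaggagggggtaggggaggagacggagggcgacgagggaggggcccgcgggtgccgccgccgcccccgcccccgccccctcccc
The P2ry13 window holds 5 CpG pairs at 41.6% GC and the P2ry12 window 3 at 41.6%, beside a median of 6 pairs and 52.4% GC over 32851 windows of all genes. The windows of Adora1 hold 19 and 18 pairs, the Nt5e window 21 and those of Adk 15 and 24, so every window of the members that were not lower holds at least 15. The windows of the other lower members hold 18 and 8 (Entpd1), 6 and 4 (P2rx7) and 13 (P2rx4). Annotated exons cover all 250 bases of the Nt5e window and of the Adora1 window with 18 pairs. They also cover 185 bases of the Adk window with 15 pairs, 118 of the Entpd1 window with 18 and 16 of the P2rx7 window with 6. Adora2a, also not lower, has no window. The letters GAGGAAG, a core bound by the myeloid factor PU.1, were searched on both strands and occur in 10.6% of all windows. Among the 12 windows of the members they occur in 2, in P2ry13 from 48 to 42 bases before the start and in Entpd1 from 227 to 221 bases before it. The half-site TTGGCA of the NFI factors (12.3% of all windows) is in the windows of P2ry12 and, in 1 of 2 windows, Adk. The half-site TGACG of the cyclic AMP response element (17.8%) is in 4 windows, of P2rx4, Adk and Entpd1, the last in both. No 2 of these matches overlap, and a match is a description of letters, not of a bound site.

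The P2X channels differed by less. P2rx7, the low-affinity ATP channel that opens the inflammasome pathway in microglia and is also made by cells of the oligodendrocyte lineage (chromosome 5, 122643911 to 122691432, plus strand), gave 35 reads (3.24 CPM) against 98 (11.8 CPM). The escalating level was below the other by 3.66-fold (2.47 to 5.55). P2rx4, an ATP channel of microglia and of some neurons that lies next to P2rx7 (chromosome 5, 122707544 to 122729738, plus strand), gave 43 reads (3.97 CPM) against 53 (6.41 CPM), a deficit of 1.61-fold (1.06 to 2.47). The interval of P2rx4 nearly reached equality, and its log2 ratio of -0.68 became -0.32 with total-read scaling and -0.55 when AK140265 and the ribosomal RNA precursor Rn45s were left out of the totals; neither was called. P2rx6, a subunit gene that forms few channels on its own, went the other way, at 54 reads against 21 and 1.97-fold (1.17 to 3.43) above, but it shares 13.9% of its exon bases with Slc7a4 on the opposite strand. P2rx1, P2rx3 and P2rx5 had between 2 and 8 counts in each library, and P2rx2 had 0 in both.

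The enzymes at the cell surface went in opposite directions. Entpd1 encodes CD39, which cuts ATP and ADP to AMP and is made by microglia and endothelium (chromosome 19, 40612366 to 40741602, plus strand). Its 128 reads (11.8 CPM) with escalation compare with 490 (59.2 CPM) without, a 5.01-fold deficit (4.11 to 6.13). Nt5e encodes CD73, which cuts AMP to adenosine and in the striatum is found on projection neurons beside the Adora2a receptor (chromosome 9, 88327197 to 88372092, plus strand). Its 205 reads (18.9 CPM) compare with 97 (11.7 CPM), a 1.62-fold excess in the escalating library (1.26 to 2.08). Nt5e was the only gene of the 10 called higher. Relative to the summed counts of 10 pan-neuronal markers, a scaling chosen after the data were seen, its log2 ratio was 0.43 in place of 0.69 and it was not called.

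Within a library the share of 1 gene among the reads of a pair does not depend on how libraries are scaled; the pairs were chosen after the values were seen. Entpd1 made up 38.4% of the reads of Entpd1 and Nt5e together with escalation (exact binomial bounds at 95% of 33.2 and 43.9) and 83.5% without (bounds 80.2 and 86.4). The order of the pair in raw counts was thus reversed, with Nt5e ahead in the former and Entpd1 in the latter. Per kilobase of exon the pair was not separated with escalation, at 2.2 CPM for Nt5e and 2.12 for Entpd1 with intervals that overlap. P2ry13 made up 8.7% of the reads of P2ry13 and P2ry12 with escalation (bounds 1.07 and 28.0) and 43.7% without (bounds 41.4 and 45.9), so the pair of microglial ADP receptors differed between libraries in balance as well as in level. These intervals, too, cover counting error only.

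**Figure D2:**
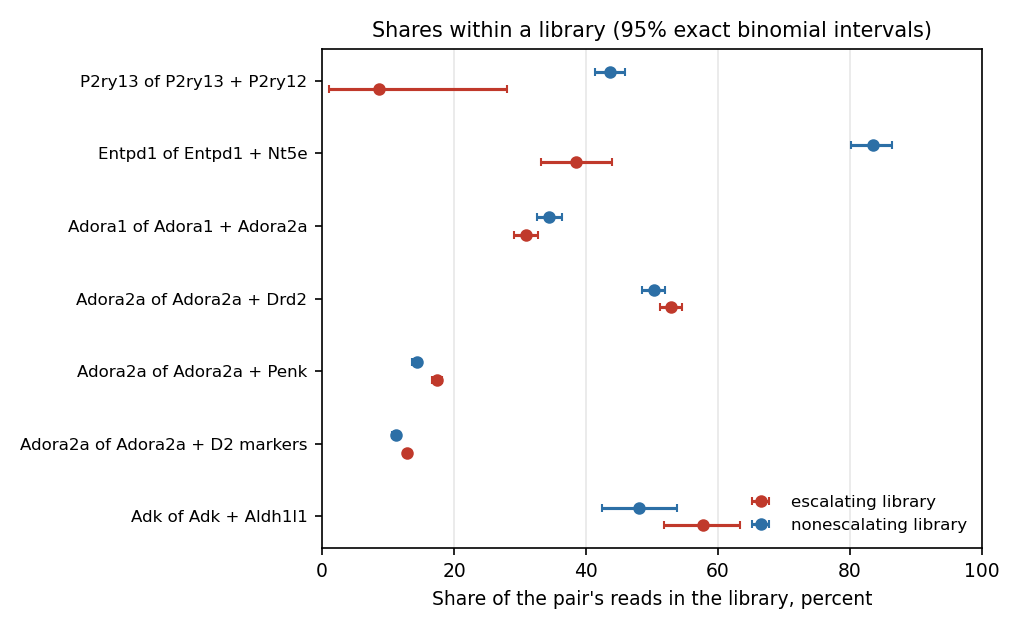
Share of 1 gene among the reads of a pair of genes, or of the gene and 6 summed D2 projection neuron markers, within each library, in percent, for the escalating (red) and nonescalating (blue) library; bars are exact 95% binomial intervals. The share of Entpd1 beside Nt5e is 38.4% against 83.5% and that of P2ry13 beside P2ry12 is 8.7% against 43.7%. The shares of Adora1, Adora2a and Adk lie nearer each other. For Adora2a the intervals overlap beside Drd2 and not beside Penk or the 6 summed D2 markers, most of whose reads are those of Penk.

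Of 4 other measured ectonucleotidases 2 were lower and 0 higher. Entpd2, a relative of Entpd1 that prefers ATP and is made by astrocytes and other glia, gave 18 reads against 97, a 7.05-fold deficit (4.23 to 12.4), though it shares 28.8% of its exon bases with Npdc1 on the same strand. Enpp2, which encodes the lysophospholipase autotaxin of oligodendrocytes and choroid plexus, gave 716 reads against 1339, a 2.45-fold deficit (2.23 to 2.68). Entpd3, the form of neurons, gave 150 reads against 82 for a log2 ratio of 0.48 (0.09 to 0.89), under the 1.5-fold threshold but called higher with total-read scaling. Enpp1 had 39 and 37 counts and was not called, and Alpl, with 12 and 37, was below the count minimum.

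Among adenosine receptors, those of neurons were not called under the main scaling. Adora2a, the adenosine receptor that raises cyclic AMP in the projection neurons of the indirect pathway (chromosome 10, 75316877 to 75334784, plus strand), gave 1830 reads (169 CPM) against 1647 (199 CPM). Its log2 ratio was -0.24 (-0.33 to -0.14). Adora1, the receptor that lowers cyclic AMP and transmitter release in many neurons (chromosome 1, 134199223 to 134235431, minus strand), gave 819 reads (75.7 CPM) against 866 (105 CPM), for a log2 ratio of -0.47 (-0.61 to -0.33). Neither reached 1.5-fold. The sign of Adora2a depends on the scaling, since its ratio was 0.13 with total reads, while that of Adora1 was -0.11; against the pan-neuronal markers Adora1 was called lower at -0.72. Adora1 shares 20.1% of its exon bases with Mybph on the opposite strand, which had 0 and 2 counts.

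Ratios to other genes of the same cells place Adora2a. It made up 52.9% of the reads of Adora2a and Drd2 with escalation (bounds 51.2 and 54.6) and 50.3% without (bounds 48.6 and 52.0), which overlap. Beside Penk, the enkephalin gene of the same cells, its share was 17.4% with escalation (16.7 to 18.2) and 14.3% without (13.7 to 15.0), and beside the summed reads of 6 markers of the Drd2 type, Drd2 and Penk among them, it was 12.9% (12.3 to 13.5) and 11.1% (10.6 to 11.6). In the latter comparisons the counting intervals do not overlap, and the share of Adora2a was the larger with escalation. Penk alone gave 8666 of the 12362 summed marker reads with escalation and 9854 of the 13149 without. The comparison with the sum therefore largely repeats that with Penk. Of 6 markers of the Drd2 projection neurons, 3 had a lower log2 ratio than Adora2a and 3 a higher one, and their median was -0.23. Adora1 made up 30.9% (29.2 to 32.7) and 34.5% (32.6 to 36.4) of the reads of Adora1 and Adora2a. The balance of the receptors therefore differed by less than 4 percentage points, with intervals that just overlap. Overlap of separate intervals, here or beside Drd2, does not by itself place a difference within counting error. Adora2b and Adora3, the receptors of lower abundance, had 3 and 17 counts and 1 and 11 counts and were below the count minimum.

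Adk, the kinase that clears adenosine (chromosome 14, 21052574 to 21448569, plus strand), gave 169 reads (15.6 CPM) against 152 (18.4 CPM). Its log2 ratio was -0.23 (-0.56 to 0.09), an interval that holds 0, and 0.13 with total-read scaling. Adk is chiefly an astrocyte gene in the adult brain, and all 15 astrocyte markers on the list had a lower ratio than Adk. Their median was -1.55, all 15 were called lower, and their summed level was 2653 CPM with escalation against 16652 CPM without; the part of astrocytes in the value of Adk was not tested. Adk had 5.89 reads per 1000 of the summed astrocyte markers with escalation and 1.1 without (shares of 0.585%, interval 0.501 to 0.68, and 0.11%, 0.093 to 0.129). Slc1a2 alone gave 15371 of the 28708 summed marker reads with escalation and 109677 of the 137772 without. Its log2 ratio of -3.22 was the lowest of the list, so the summed values depend heavily on this gene. Set beside Aldh1l1 alone, the astrocyte marker with the smallest decline at 124 and 164 counts, Adk made up 57.7% (51.8 to 63.4) and 48.1% (42.5 to 53.8) of the reads of the pair.

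The other genes of adenosine uptake and conversion were mixed. Of 13 measured besides Adk, 4 were lower and 1 higher, with a median of -0.15 (2 lower and 2 higher, with a median of 0.21, under total-read scaling). Slc29a3, the nucleoside transporter of lysosomes, gave 167 reads against 532, a 4.17-fold deficit (3.5 to 4.99). Pnp, which splits inosine, was down 2.98-fold (2.23 to 4.01), but it has a close copy, Pnp2, and its count is uncertain. Slc29a1, the main nucleoside transporter of the cell surface, gave 51 reads against 65, a 1.67-fold deficit (1.14 to 2.45). For the nucleotidase gene Nt5c3 the deficit was 1.61-fold (1.26 to 2.06). Slc29a1 and Nt5c3 lost their calls with total-read scaling. Nt5c3b, a relative of Nt5c3 that overlaps Fkbp10 on the opposite strand, gave 186 reads against 68, a 2.09-fold excess (1.58 to 2.8). The abundant Ahcyl1 gave 4985 reads against 4054 and a log2 ratio of -0.09, and Ahcy, Ahcyl2, Ampd2, Ampd3, Slc29a2, Nt5c and Nt5c2 were not called either.

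Over the 42 other genes of these lists 23 were measured, of which 8 were lower and 2 higher with a median log2 ratio of -0.31. These lists were drawn up with earlier results of the same libraries known. With total-read scaling 4 were lower and 4 higher, and the median was 0.05.

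**Figure D3:**
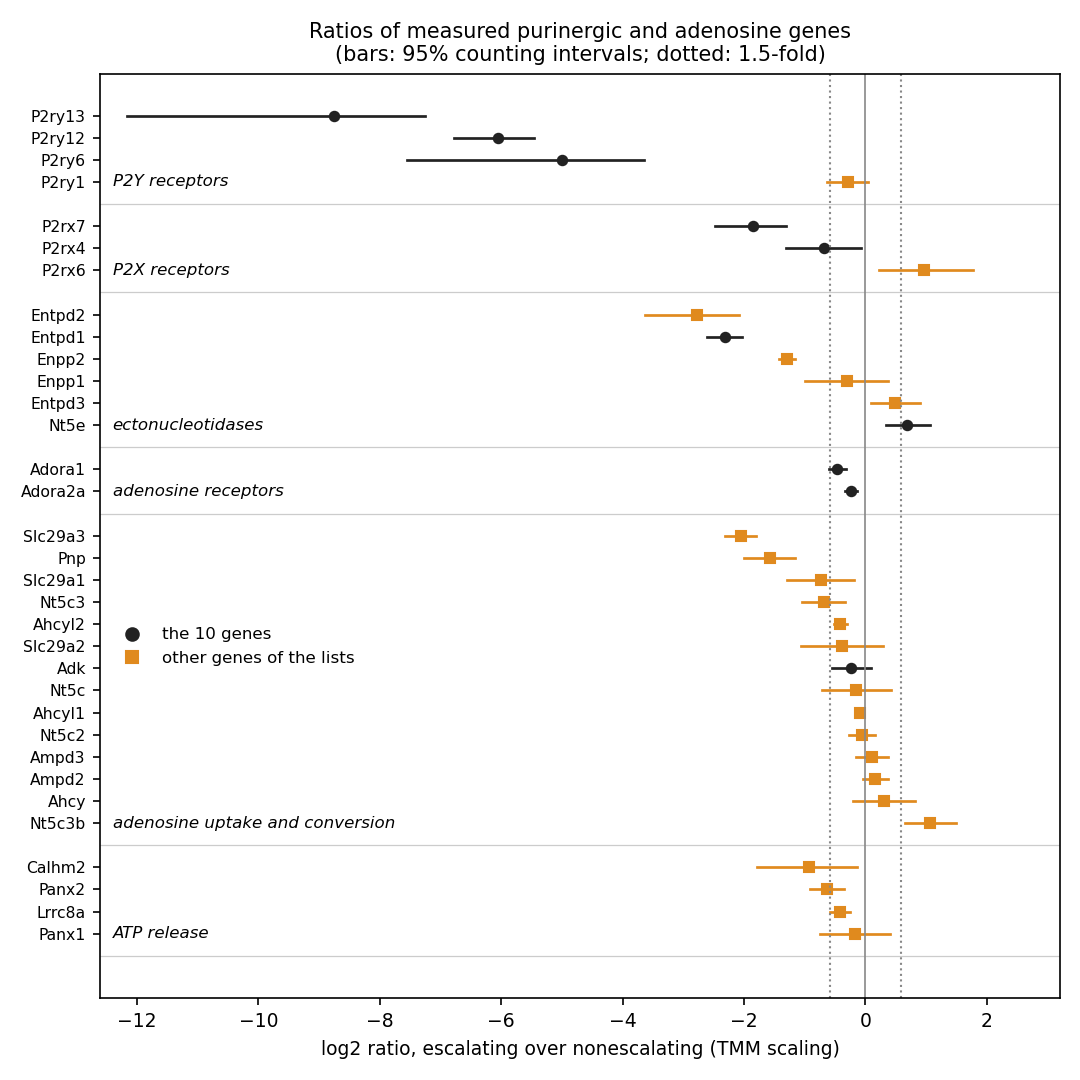
Log2 ratio of escalating over nonescalating for the 10 genes (black circles) and the 23 other measured genes of the purinergic and adenosine lists (orange squares), grouped by role; bars are exact 95% counting intervals and dotted lines mark 1.5-fold. P2ry13, P2ry12 and P2ry6 lie from -8.75 to -5.0, apart from the other genes shown, and the adenosine receptor genes lie at -0.47 and -0.24.

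Levels can be compared between genes only per length of transcript. Per kilobase of exon the nonescalating library had Adora2a highest at 65.0 CPM per kb, then P2ry12 at 51.7, P2ry13 at 40.4, Adora1 at 18.1, Entpd1 at 10.6 and P2ry6 at 3.64. Adk at 2.15, P2rx7 at 1.98, Nt5e at 1.36 and P2rx4 at 0.912 closed the order, each with a counting interval that overlapped its neighbour's. The microglial ADP receptors thus stood next to Adora2a in that library.

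In the escalating library Adora2a was again highest at 55.2 CPM per kb, followed by Adora1 at 13.1. Nt5e at 2.2, Entpd1 at 2.12 and Adk at 1.83 followed and overlapped in sequence, as did P2ry12 at 0.762, P2rx4 at 0.566 and P2rx7 at 0.542. P2ry6 at 0.096 and P2ry13 at 0.0731 were lowest and did not differ beyond counting error. P2ry12 stood at rank 6 and P2ry13 at rank 10 in this library, against ranks 2 and 3 in the other.

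Markers of cell types differed between the libraries to an extent that varied by type. All 20 microglia markers were called lower, with a median log2 ratio of -5.63 and, for the 18 with a read in both libraries, a range from -8.06 to -1.98. Their summed level was 57.0 CPM with escalation against 1906 CPM without. Trem2 and Gpr34, both defining markers, had 0 counts with escalation against 106 and 149 without; with both genes placed at the 3 counts that a 0 allows, the list median was -5.54. Of 12 mature oligodendrocyte markers 8 were lower (median -0.84, summed level 1736 and 4214 CPM), and of 10 endothelial markers 9 were lower (median -0.94, summed level 76.2 and 151 CPM). Of 10 pan-neuronal markers 2 were higher and 0 lower (median 0.29, summed level 7857 and 6572 CPM), and of 6 markers each of Drd1 and Drd2 projection neurons none was called, with medians of 0.06 and -0.23. With total-read scaling the medians were -5.27 for microglia, -1.19 for astrocytes, -0.48 for oligodendrocytes and -0.58 for endothelium, 5 oligodendrocyte and 5 endothelial markers were still lower, and the median of the Drd2 type turned positive (0.13). Under the same scaling 6 of 10 pan-neuronal markers (median 0.65) and 2 of 6 markers of the Drd1 type (median 0.42) were higher. The part of these cell types in the values of the 10 genes was not tested.

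The 10 genes spread across the range of these markers. P2ry13 had a lower ratio than each of the 18 microglia markers with a read in both libraries. P2ry12 and P2ry6 lay inside their range, with 4 and 13 of the 18 below them. Entpd1 had 16 of the 18 below it, and P2rx7 and P2rx4 had all 18 below them. Against the 15 astrocyte markers, 4 lay below Entpd1, 7 below P2rx7 and all 15 below P2rx4. P2rx7 also lay inside the range of the oligodendrocyte and endothelial markers, with 1 of 12 and 1 of 10 below it. Nt5e had a higher ratio than 9 of the 10 pan-neuronal markers and than all 12 markers of the projection neurons. Adora1 had a lower ratio than all 10 pan-neuronal markers, all 6 markers of the Drd1 type and 5 of the 6 of the Drd2 type.

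The same spread is seen per 1000 reads of the summed microglia markers, a measure free of library scaling but not of the make-up of the sum. Sall1, with the highest ratio of the list (-1.98), gave 159 of the 617 summed marker reads with escalation and 482 of the 15766 without. The values per 1000 in the escalating library therefore depend in part on this gene. P2ry6 had 4.86 reads per 1000 with escalation, resting on 3 reads, and 5.52 without; as shares these are 0.484% (0.1 to 1.41) and 0.549% (0.44 to 0.676), and the interval of the former is too wide to place the gene. P2ry12 had 34.0 and 69.1, and P2ry13 had 3.24 and 53.5, fewer in the escalating library. Entpd1 had 207 and 31.1, P2rx7 56.7 and 6.22, and P2rx4 69.7 and 3.36. These last 3 genes were thus lower in the escalating library by less than the microglia markers as a whole.

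**Figure D4:**
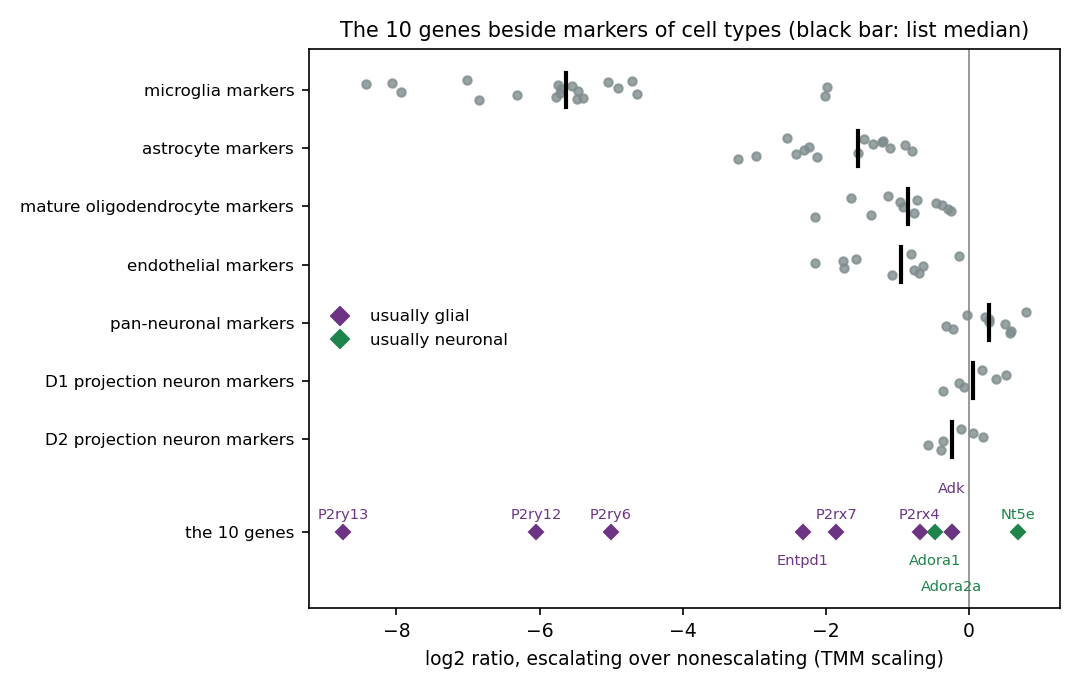
Log2 ratio of escalating over nonescalating for the markers of 7 cell types (grey points, 1 per gene, with the list median as a black bar; Trem2 and Gpr34, at 0 counts with escalation, are drawn at their ratio with the pseudocount) and for the 10 genes (diamonds; purple where the gene is usually glial, green where usually neuronal). P2ry12 and P2ry6 lie among the microglia markers (median -5.63) and P2ry13 below them. Entpd1 and P2rx7 lie among the astrocyte markers (median -1.55), and Adora1, Adora2a and Adk near the D2 projection neuron markers (median -0.23). These places are not particular to a single cell type. Entpd1 also lies within the microglia range and P2rx7 within the oligodendrocyte and endothelial ranges. Adora1 lies within the oligodendrocyte range too, and below all pan-neuronal and D1 markers.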

How the data were processed

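Total RNA of dissected dorsal striatum was sequenced as 1 library per group. Reads were aligned with STAR 2.0.0e to mm10 and then counted by HTSeq (per the submitters' processing notes). No source used here states the annotation or the strand setting. What the authors deposited is the raw count of reads for each gene symbol. Reads given to no gene stayed out of library sizes; 53.8% (escalating) and 55.3% (nonescalating) of listed reads were assigned.

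Library sizes were scaled with TMM factors (1.13 and 0.882; edgeR 4.0.16, R 4.3.3). Log2 ratios used a pseudocount of 0.5 counts, scaled to library size; folds are ratios of CPM without it. Intervals are exact (Clopper-Pearson for ratios and shares, Poisson for levels). Genes needed 50 counts over both libraries. Tests between groups were not run, having no replicates. Alternatives were DESeq2 1.42.0 size factors, other totals, filters, pseudocount and thresholds. Coordinates, exon lengths and overlaps came from GENCODE M21, which matched 71.0% of symbols uniquely. The calls were tested on simulated counts that held counting error only. Such counts cannot show how far libraries of the same group would differ. The remaining steps ran in Python 3.11.15 (scipy 1.17.1, matplotlib 3.10.9).

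The members and lists were chosen with earlier results of these data known. The text names the 10 members, up to 4 measured genes per list, ranked by the size of the ratio, genes that overlap a member, and for P2ry12, Adora2a and Adk the 3 nearest genes; other genes are named for their place or role. The 3 most abundant markers of each cell type list, which the rule also covers, are reported within their list.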

Additional observations from a re-analysis of the deposited data

How the results depend on the processing

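None of the 70 recomputed ratios of single genes changed the sign of a called value. Of these, 62 stayed inside the gene's counting interval and 8 moved beyond it. The 70 include ratios under the changed count filters, which could not move, since a filter does not alter a ratio. The count of members called lower (6) was 5 with total reads, with totals without AK140265 and Rn45s and at 2-fold, in each case without P2rx4, and 7, with Adora1, when scaled to pan-neuronal markers. The other genes of the lists, 8 lower and 2 higher, became 4 lower and 4 higher with total reads and 4 lower and 1 higher at 2-fold. At 2-fold 0 members were called higher. With the pan-neuronal scaling, chosen after the data were seen, 0 members and 1 other gene were higher, and the median over all measured genes was -0.24. The share of all measured genes called was worked out only for the main and total-read settings. Counts under the other settings have no such share beside them, and nothing is read from them. The count of all measured genes called was 2085 lower and 1143 higher, and 1148 and 3853 with total reads, where the median over all genes was 0.38 in place of 0.02. With a pseudocount of 5 the log2 ratio of P2ry13 was -7.18 in place of -8.75, as its 2 counts allow. No paired analysis was possible because each group has 1 library, and leaving out a replicate was not possible for the same reason. Depth limits P2ry13 and P2ry6, with 2 and 3 reads in the escalating library.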

Other observations

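Of 4 measured genes for channels that let ATP or other solutes out of cells 2 were lower and 0 higher, with a median log2 ratio of -0.52. Panx2, a pannexin gene of neurons, gave 191 reads in the escalating library against 226, a 1.55-fold deficit (1.27 to 1.89). Calhm2 gave 23 reads against 34, a 1.93-fold deficit (1.11 to 3.44), and shares 10% of its exon bases with Pdcd11 on the opposite strand. Panx1 and Lrrc8a, a subunit of volume-regulated anion channels, were not called, with log2 ratios of -0.17 and -0.42. Lrrc8a shares 66.2% of its exon bases with Gm28035 on the same strand. Slc17a9, the vesicular nucleotide transporter, had 9 and 2 counts and Calhm1 had 0 in both. With total-read scaling 0 of the 4 were called.

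The genes nearest to a member in log2 CPM of both libraries describe likeness over 2 libraries only. For P2ry12 they were C1qc (22 and 901 counts, distance 0.28), Mpeg1 (32 and 1043, distance 0.6) and Itgam (14 and 1276, distance 0.61), of which C1qc and Itgam are on the microglia list. For Adora2a they were Atf6, Cntnap1 and Ptprn2, and for Adk they were Scfd1, Cmya5 and Sec23b, all within 0.04 log2 units. The neighbours of Adora2a and Adk lie in the crowded middle of the data, where many genes share a ratio.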
